A study of Mus musculus with 6 samples.

Results

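The SLC25 genes encode the mitochondrial carriers, and their messenger RNA was examined here in the atria of obese and lean mice. Members were taken by name, as every gene of the deposited table whose symbol is Slc25a followed only by a number, whatever its letter case, because the table writes symbols in capitals. There were 47 such genes among 43432 with an identifier, and 45 of them had at least 1 read. Bulk RNA sequencing was carried out on right and left atrial tissue of wild-type C57/Bl6J mice. Mice called obese here (n = 3) had been fed a high-fat diet (HFD), and those called lean (n = 3) a control chow, each for 10 weeks from 6 weeks of age. Titles of the samples and headings of the table's columns give the same answer on the diet of each mouse, the treatment field gives the opposite diet for all 6, and the titles were followed. If that field were right, every direction given here would be turned around.

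The deposited unit is the normalized count, the number of reads on a gene divided by 1 size factor for the library. Reads on genes came to between 15874251 and 28971508 per library, the most in lean mouse 2, where 30.7% of them lay on mitochondrially encoded genes against 19.5% to 24.4% in the other 5. A signal of 3 reads, taken as the floor, equals 2.05 normalized counts in lean mouse 2 and from 3.01 to 3.41 elsewhere, counting error only. The atrial markers Nppa, Myl7, Myl4 and Sln were abundant in all 6 libraries, but their summed level was 283677 and 280221 normalized counts in obese mice 1 and 2 and 510615 in obese mouse 3, against 434544 to 478294 in the lean mice. Of the ventricular markers, 5 in all, the sum was 17448 in lean mouse 2 and from 6921 to 9918 in the other 5, while the fibroblast and erythroid marker sums overlapped between groups. By the sum of the atrial list, most of which was Nppa, obese mouse 3 stood nearer the lean mice than the other obese mice did. Its Sln, at 19799 normalized counts, was close to that of obese mouse 2 (19693) and below the lean mice (25151 to 27600). Results that rest on obese mouse 3 are also given without it. In bulk tissue, fewer cells of a type and less RNA per cell cannot be told apart.

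Carriers of this family sit mostly in the inner mitochondrial membrane, which is closed to most metabolites, and move nucleotides, phosphate, amino acids, carboxylates, acylcarnitines, cofactors and metal ions between the cytosol and the matrix. Many of them work as exchangers, taking 1 substrate in while another leaves. In heart muscle the ADP/ATP and phosphate carriers serve ATP synthesis, the acylcarnitine carrier serves fatty acid oxidation, and the aspartate-glutamate and oxoglutarate carriers make up the membrane part of the malate-aspartate shuttle, which brings the reducing power of cytosolic NADH into the mitochondrion.

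A few carriers held most of the family's RNA in both groups. Summed over all members, the level was 108878, 96928 and 112290 normalized counts in obese mice 1, 2 and 3 and 109826, 112543 and 97806 in lean mice 1, 2 and 3. The groups overlapped, and the family took from 0.723% to 0.825% of the reads outside mitochondrially encoded genes in obese atria and from 0.725% to 0.819% in lean atria. Slc25a4, the ADP/ATP carrier of heart and muscle, made up from 47.3% to 51.2% of the family's normalized counts in obese and from 48.5% to 50.9% in lean mice.

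Levels of different genes were compared per kb of exon sequence, with all annotated exons of a gene joined. Exons that are seldom used lower a gene's value per kb, so ranks and margins are approximate. Slc25a4 was highest, at a mean of 22430.0 normalized counts per kb over the 6 mice. It was followed by Slc25a3, the phosphate carrier, at 3771, by Slc25a5, the ADP/ATP carrier found in most tissues, at 2512, and by Slc25a11, the oxoglutarate carrier, at 2226. Before division by length, the means of Slc25a4 and Slc25a3 were 52778 and 20927. Slc25a5 and Slc25a11 are neighbours that did not differ beyond their spread, since their ranges over the mice, from 2233 to 3314 and from 1783 to 2688 per kb, overlapped. The fifth and sixth were Slc25a39, a carrier needed for mitochondrial glutathione, at 911, and Slc25a12, the aspartate-glutamate carrier aralar, at 509 normalized counts per kb. At the other end of the 39 members abundant enough to be compared between groups stood Slc25a53, a carrier of unknown substrate, at 3.66 per kb.

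**Figure D1:**
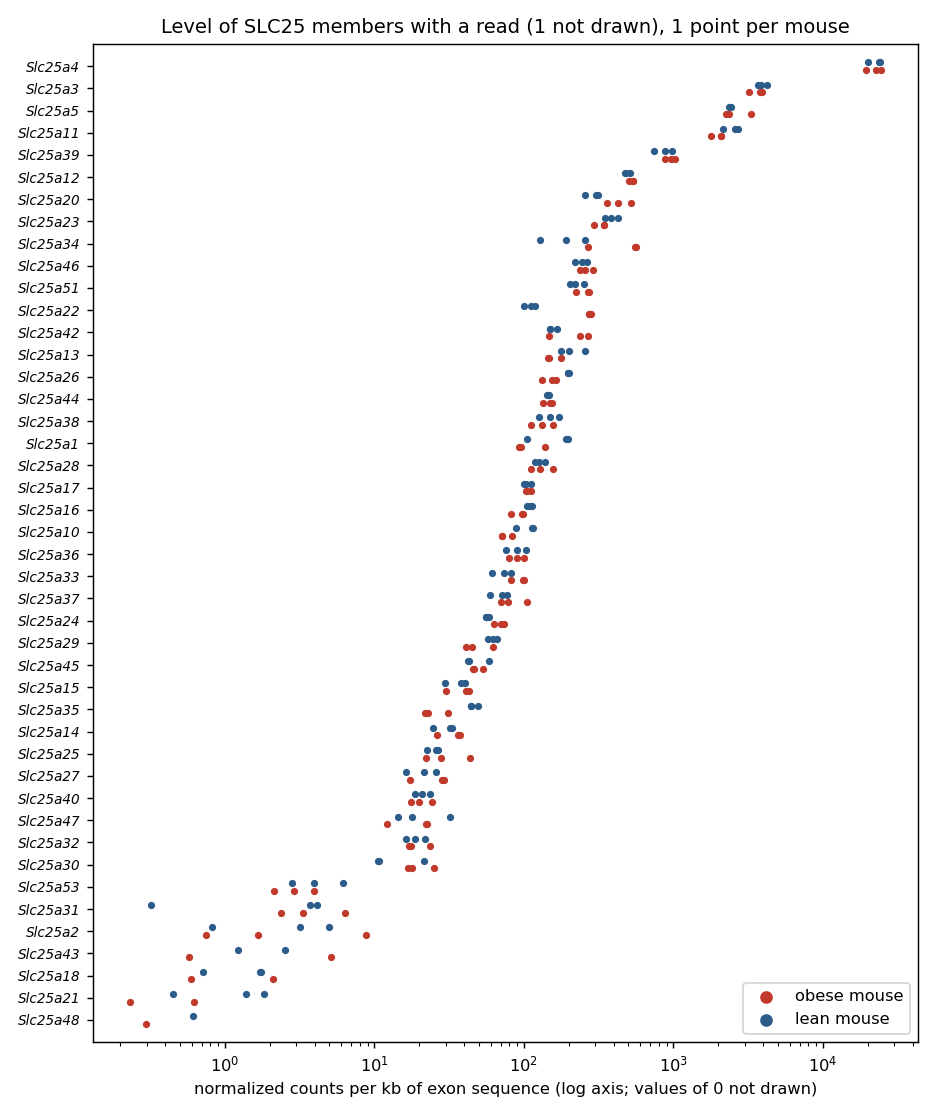
Level of SLC25 members with a read, 1 of them not drawn, as normalized counts per kb of exon sequence on a log axis, with 1 point for each obese (red) and lean (blue) mouse. Slc25a4 lies at a mean of 22430.0 per kb, and the red and blue points of Slc25a22 are apart.

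The groups were compared gene by gene with limma on log2(normalized count + 1), a scale that understates the change of genes with few reads, and genes averaging 10 normalized counts or more over the 6 mice were tested. Of the 47 members, 39 were tested. With p adjusted over the 15275 genes tested and a threshold of 0.05, 1 member rose in obese atria and 0 fell. Of all genes tested, 0.484% rose, 0.262% fell and 0.746% passed in either direction. At an unadjusted p under 0.05 there were 4 members with a higher and 6 with a lower value in obese atria. These 10 are 25.6% of the 39, where 12.2% of all genes tested had such a p, 6.66% higher and 5.55% lower. For 11 members, 28.2%, the values of the 3 obese mice all lay on one side of the 3 lean mice, 4 of them higher and 7 lower. The same held for 18% of all genes, 8.86% higher and 9.17% lower. The log2 fold change, obese minus lean and written log2FC from here on, had a median of 0.023 over the 39 members and of 0.00492 over all genes tested.

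**Figure D2:**
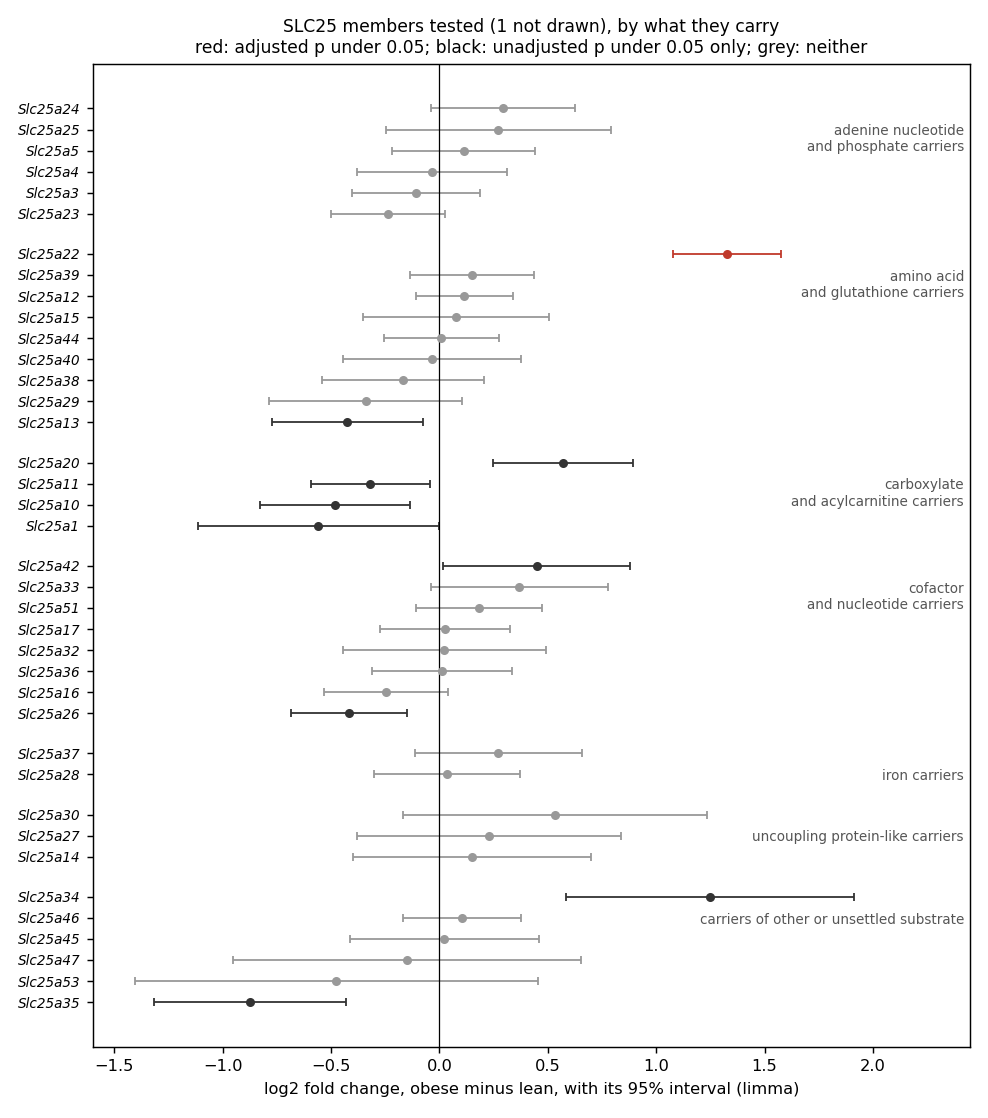
Log2 fold change, obese minus lean, of the SLC25 members tested, 1 of them not drawn, with its 95% interval from limma, grouped by what the carriers are known to move. Slc25a22 alone has an adjusted p under 0.05 (red), at 1.33, and most of the other intervals span 0.

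The member that rose was Slc25a22, a mitochondrial glutamate carrier that brings glutamate into the matrix together with a proton. It is ENSMUSG00000019082 and lies on the minus strand of chromosome 7 of GRCm38 from 141429739 to 141437892. It had 1692, 1635 and 1633 normalized counts in obese mice 1, 2 and 3 and 709, 669 and 603 in lean mice 1, 2 and 3. The 3 obese mice were nearly equal, and the lowest of them stood far above the highest lean mouse. The means were 1653 ± 33.3 (SD, n = 3) in the obese group and 660 ± 53.3 (SD, n = 3) in the lean group. This 2.51-fold higher level is a log2FC of 1.33 (standard error 0.11, adjusted p = 0.000719 from limma). A two-sided exact permutation test gave p = 0.1, and 3 mice against 3 cannot give less. Leaving out any single mouse gave a log2FC between 1.26 and 1.38, with 0.00934 as the highest adjusted p from limma. Without a variance trend in limma the adjusted p was 0.0594.

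Per kb of exons, Slc25a22 stood twelfth in the family over all mice, at 276 normalized counts in the obese and 110.2 in the lean group. The second glutamate carrier gene, Slc25a18, had from 0 to 4 reads per library and could not be tested. Because both carriers move glutamate, the enzymes of glutamate and glutamine metabolism were also looked at, and 0 of 8 passed the adjusted threshold. Glul, the glutamine synthetase, had 8450, 6992 and 4400 normalized counts in obese mice 1, 2 and 3 and 4163, 4223 and 3069 in the lean mice, with log2FC 0.76 (adjusted p = 0.166 from limma). Aldh18a1, which makes the proline precursor from glutamate, showed a log2FC of 0.57 (adjusted p = 0.238 from limma). The obese mice lay above the lean mice for both. They lay below the lean mice for Aldh4a1, which ends proline breakdown in glutamate (log2FC -0.26, adjusted p = 0.389 from limma), and for Glud1, the glutamate dehydrogenase (log2FC -0.12, adjusted p = 0.711 from limma).

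Of the other members with a higher value, Slc25a34 had the largest difference. It is a carrier without a settled substrate and lies on chromosome 4. It had 1502, 1483 and 720.1 normalized counts in obese mice 1, 2 and 3 and 680, 511 and 343 in lean mice 1, 2 and 3. The groups did not overlap, but obese mouse 3 was close to the highest lean mouse. The log2FC was 1.25 (standard error 0.30, adjusted p = 0.0953 from limma). Without obese mouse 3 the adjusted p from limma was 0.00648, and with any other mouse left out it was between 0.128 and 0.283. Without a variance trend in limma it was 0.311.

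Slc25a20 encodes the carnitine-acylcarnitine carrier, which takes fatty acyl groups into the matrix for oxidation. It had 2502, 2072 and 1751 normalized counts in obese mice 1, 2 and 3 and 1461, 1528 and 1244 in lean mice 1, 2 and 3, so the groups did not overlap. The log2FC was 0.57 (standard error 0.15, adjusted p = 0.115 from limma). Without obese mouse 3 the adjusted p from limma was 0.025, and with any other mouse left out it was between 0.263 and 0.299. DESeq2, applied to the whole reads of all 6 mice, gave an adjusted p of 0.0127, and limma without a variance trend gave 0.315.

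Slc25a42, a carrier of coenzyme A, had 1415, 1610.3 and 889 normalized counts in obese mice 1, 2 and 3 and 899, 996.5 and 890 in lean mice 1, 2 and 3. Obese mouse 3 lay within the range of the lean mice, and the other 2 obese mice lay above it. The log2FC was 0.45 (adjusted p = 0.385 from limma), with 0.70 without obese mouse 3 (adjusted p = 0.0159 from limma) and 0.27 without obese mouse 2 (adjusted p = 0.721 from limma). In all 4 members with a higher value and an unadjusted p under 0.05, obese mouse 3 was the lowest of the obese mice. This is the mouse whose atrial marker sum, 510615, stood apart from those of the other 2 obese mice, and whether the 2 are related was not tested. Slc25a22 was as high in this mouse as in obese mouse 2.

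Levels of adipocyte markers also differed between libraries. The summed level of 7 adipocyte markers was 12538, 7530.4 and 6593 normalized counts in obese mice 1, 2 and 3 and 6974, 5403 and 3517 in lean mice 1, 2 and 3. Fabp4 made up most of each sum, with 8820, 6273 and 5075 in the obese and 4228, 4169 and 2949 in the lean mice. It alone of the 7 had groups apart (log2FC 0.81), and Lep had the opposite sign (log2FC -1.41). Of these 7 markers, 0 had an adjusted p under 0.05, and Adipoq ranged from 67.8 to 533 over the 6 mice with overlapping groups. The 4 brown adipocyte markers summed to 1283, 616 and 1276 in the obese and to 330, 239 and 187 in the lean mice. Of the 3 that could be tested, Ucp1 and Cidea rose (adjusted p = 0.0446 and 0.031 from limma), and the groups were apart for all 3. Slc25a22 and the brown adipocyte sum were both higher in every obese than in every lean mouse. The part of adipocyte or endothelial RNA in the members' values was not tested. The 4 endothelial markers summed to 12524, 13633 and 11973 in the obese and to 9821, 10501 and 10700 in the lean mice, without overlap. Pecam1 alone had groups apart, from 5340 to 6259 in obese and from 3842 to 4106 in lean mice (adjusted p = 0.0504 from limma). Tek, Kdr and Cdh5 had overlapping groups and log2FCs of 0.18, 0.14 and 0.037. Of these 4 and of the 5 macrophage markers, 0 passed the adjusted threshold, and each list had 1 gene with an unadjusted p under 0.05.

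**Figure D3:**
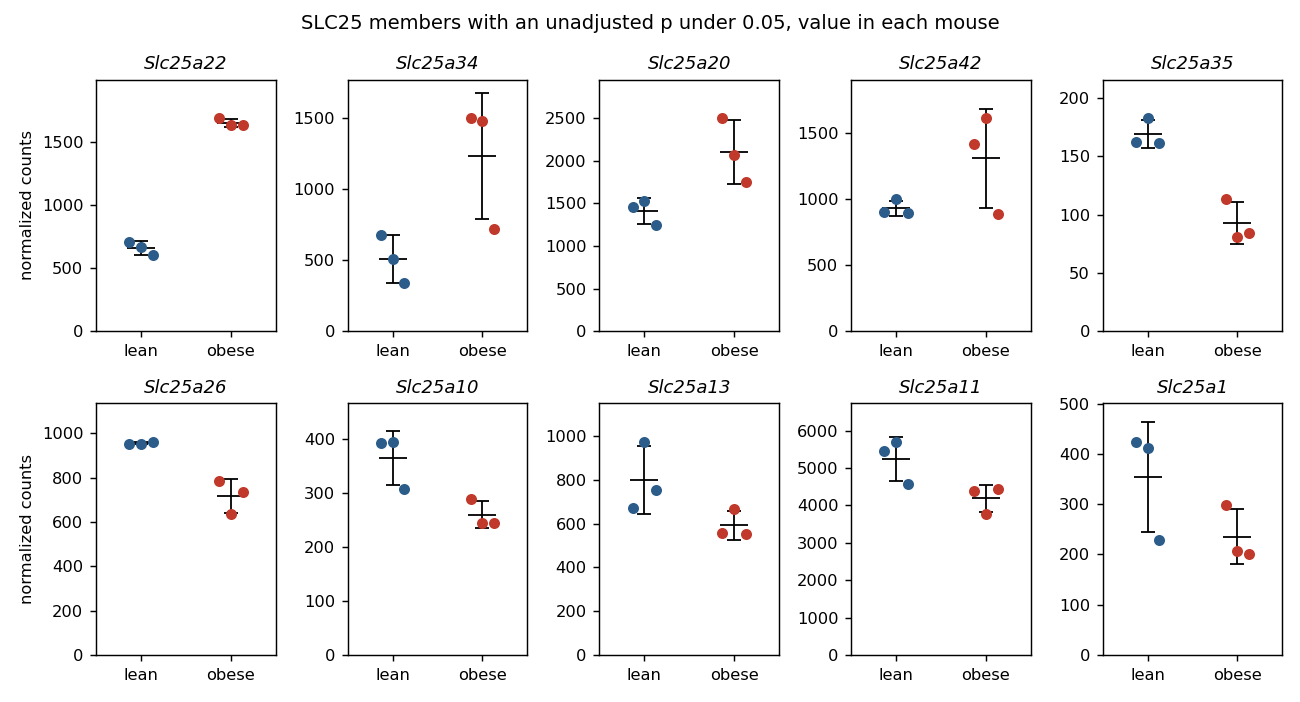
Normalized counts in each lean (blue) and obese (red) mouse for the 10 SLC25 members with an unadjusted p under 0.05 from limma, on axes that start at 0, with the mean and SD of each group in black. Obese mouse 3 is the rightmost red point, and for Slc25a42 it lies among the lean mice at 889.

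The stretches from 200 to 51 bases before the annotated starts of these 4 genes are shown because the genes had higher values together and their promoters can be compared by eye. They are RefSeq sequences of GRCm38.p6, 150 bases each, 5′ to 3′ on the strand of the gene, and 1 of the 3 Slc25a22 windows is left out because it lies in an exon. Capitals mark the GC box core GGGCGG, the CCAAT box and the nuclear receptor hexamer AGGTCA, each on either strand, and CACGTG, the core E-box, was searched too but is not in them.
Slc25a22, start nearer the 5′ end of the gene, chr7:141437925-141438074, minus strand: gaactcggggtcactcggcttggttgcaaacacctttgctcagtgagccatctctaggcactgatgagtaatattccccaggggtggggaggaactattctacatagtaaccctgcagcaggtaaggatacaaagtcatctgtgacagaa
Slc25a22, inner start, chr7:141435426-141435575, minus strand: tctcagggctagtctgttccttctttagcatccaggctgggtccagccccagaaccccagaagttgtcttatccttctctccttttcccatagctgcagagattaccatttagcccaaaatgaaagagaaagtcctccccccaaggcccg
Slc25a34, chr4:141623885-141624034, minus strand: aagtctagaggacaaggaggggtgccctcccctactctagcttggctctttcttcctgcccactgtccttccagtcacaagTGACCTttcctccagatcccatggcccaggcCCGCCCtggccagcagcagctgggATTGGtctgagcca
Slc25a20, chr9:108661936-108662085, plus strand: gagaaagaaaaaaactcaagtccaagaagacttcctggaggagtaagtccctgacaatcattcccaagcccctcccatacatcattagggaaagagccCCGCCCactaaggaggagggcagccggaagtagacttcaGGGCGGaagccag
Slc25a42, chr8:70212332-70212481, minus strand: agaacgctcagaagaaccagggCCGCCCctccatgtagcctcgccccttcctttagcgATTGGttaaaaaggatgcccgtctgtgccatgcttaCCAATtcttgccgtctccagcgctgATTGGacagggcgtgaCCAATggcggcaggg

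The GGGCGG of Slc25a22 lies in the window not shown. GGGCGG was in 47.8% of the 46 windows of members, which came from 36 genes, and in 22.3% of all 32851 windows. CCAAT was in 32.6% and 23.5%, AGGTCA in 6.52% and 8.62%, and CACGTG in 10.9% and 3.56%. Slc25a34 held the only AGGTCA among the 4 genes. A repeat of AGGTCA with any 1 base between the copies, each copy also counting as an AGGTCA, is a form of the element bound by PPAR-RXR receptors, and it was in 0 of the 46 and in 0.0244% of all windows. These are matches of letters only and say nothing of binding.

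Among the members with a lower value, Slc25a35 had the largest difference. It is related to Slc25a34, also lacks a settled substrate and lies on chromosome 11. It had 114, 80.6 and 84.1 normalized counts in obese mice 1, 2 and 3 and 162, 183 and 162 in lean mice 1, 2 and 3. The groups did not overlap, and the log2FC was -0.87 (standard error 0.20, adjusted p = 0.0821 from limma, 0.0231 from DESeq2). With a mouse left out the adjusted p from limma was between 0.0857 and 0.315. Of its exon sequence, 31.3% is shared with Rangrf on the opposite strand, and whether reads were assigned by strand is not stated. Among the other tested members that share exon bases with a neighbouring gene the share was at most 14.9%. Rangrf had from 388 to 463 normalized counts in obese and from 442 to 556 in lean mice (log2FC -0.24, adjusted p = 0.561 from limma), with overlapping groups.

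Of the 4 carboxylate and acylcarnitine carriers tested, 0 passed the adjusted threshold, and 3 had a lower value with an unadjusted p under 0.05 from limma. Of all genes tested, 5.55% had such a lower value. The median log2FC was -0.40 in this class, which is too small for its count to be read as a result. Slc25a10, the dicarboxylate carrier, had 289, 245 and 245 normalized counts in obese mice 1, 2 and 3 and 391.9, 395 and 307 in lean mice 1, 2 and 3, with log2FC -0.48 (adjusted p = 0.225 from limma). Slc25a11, which exchanges oxoglutarate for malate, had 4378, 3779 and 4429 in the obese and 5462, 5698 and 4570.0 in the lean mice, with log2FC -0.32 (adjusted p = 0.334 from limma). Both carriers were lower in every obese than in every lean mouse. Slc25a1, the citrate carrier that exports citrate for lipid synthesis, had 298, 207 and 201 in the obese and 424, 412 and 228 in the lean mice, with overlapping groups (log2FC -0.56, adjusted p = 0.403 from limma). The fourth carrier of this class that was tested is Slc25a20, with a difference of the opposite sign.

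In the malate-aspartate shuttle the 2 aspartate-glutamate carriers had log2FCs of opposite sign, and neither passed the adjusted threshold. Slc25a13, citrin, had 558, 668 and 551 normalized counts in obese mice 1, 2 and 3 and 674, 975 and 756 in lean mice 1, 2 and 3, with log2FC -0.42 (adjusted p = 0.303 from limma). Slc25a12, aralar, had 3968, 3962 and 3731 in the obese and 3744, 3490.4 and 3536 in the lean mice, with log2FC 0.11 (95% interval -0.11 to 0.34). Citrin was lower in every obese mouse, and the aralar values overlapped. Of the 6 enzymes of the malate-aspartate and glycerol phosphate shuttles tested, 0 had an unadjusted p under 0.05 from limma, and their median log2FC was -0.071.

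Slc25a26, which supplies the matrix with S-adenosylmethionine for methylation, had 786, 634 and 736 normalized counts in obese mice 1, 2 and 3 and 954, 954 and 962 in lean mice 1, 2 and 3. The lean mice were nearly equal and all above the obese mice (log2FC -0.42, standard error 0.12, adjusted p = 0.161 from limma). The other 8 carriers of cofactors and nucleotides had log2FCs between -0.25 and 0.45. In this class, Slc25a51, the carrier of NAD, had from 1223 to 1512 normalized counts in obese and from 1117 to 1386 in lean mice (log2FC 0.18, 95% interval -0.11 to 0.47).

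Slc25a4, Slc25a3 and Slc25a5, the carriers highest per kb, showed no detectable difference. Slc25a11, next in level, was lower in every obese than in every lean mouse, as given above. Slc25a4 had 53287, 45809 and 57465 normalized counts in obese mice 1, 2 and 3 and 55928, 56761 and 47418 in lean mice 1, 2 and 3. The groups overlapped, and the log2FC was -0.034 with a 95% interval from -0.38 to 0.31. With quantile normalization it was 0.072. Slc25a3 had 21001, 17699 and 21810.1 in the obese and 21413, 23320.4 and 20319 in the lean mice, also overlapping (log2FC -0.11, 95% interval -0.40 to 0.19). For Slc25a5 the log2FC was 0.11 (95% interval -0.22 to 0.44). Slc25a5 had 5454 normalized counts in obese mouse 3 and from 3675 to 4026 in the other 5. Its reads are less certain, since near-identical pseudogene copies of it exist.

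The carriers that exchange ATP-Mg for phosphate are regulated by calcium. Those tested had log2FCs of differing sign, and 0 passed the adjusted threshold. Slc25a23 had 1809, 1814 and 1555 normalized counts in obese mice 1, 2 and 3 and 2242, 2018 and 1851 in lean mice 1, 2 and 3 (log2FC -0.24, adjusted p = 0.467 from limma). Slc25a24 had 254, 243 and 218 in the obese and from 190.3 to 200.03 in the lean mice (log2FC 0.29, adjusted p = 0.475 from limma). In neither gene did the groups overlap, and the signs were opposite. Slc25a25 had 344 in obese mouse 3 and from 173 to 220.0 in the other 5 mice, and without obese mouse 3 its log2FC was 0.00087 in place of 0.27.

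Among the iron carriers, the mitoferrins Slc25a28 and Slc25a37, the groups overlapped. Slc25a37 had 425, 632 and 470.2 normalized counts in obese mice 1, 2 and 3 and 428, 359 and 467 in the lean mice (log2FC 0.27, 95% interval -0.11 to 0.66). Slc25a28 had from 418 to 587 in obese and from 442 to 522 in lean mice (log2FC 0.035, 95% interval -0.30 to 0.37).

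Both carriers linked to mitochondrial glutathione overlapped as well. Slc25a39 had 2674, 2413 and 2817 normalized counts in obese mice 1, 2 and 3 and 2714, 2405 and 2039 in the lean mice (log2FC 0.15, 95% interval -0.14 to 0.44). Slc25a40 had from 148 to 203 in obese and from 156 to 198 in lean mice (log2FC -0.035, 95% interval -0.44 to 0.37). The other amino acid carriers, namely Slc25a15 of ornithine, Slc25a29 of basic amino acids, Slc25a38 of glycine and Slc25a44 of branched-chain amino acids, had log2FCs from -0.34 to 0.075. Slc25a29 had 107, 117 and 162 in the obese and 171, 163 and 150 in the lean mice, and obese mouse 3 lay within the lean range.

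In the cofactor and nucleotide class, Slc25a16, linked to coenzyme A, had 466, 470.1 and 393 normalized counts in obese mice 1, 2 and 3 and 503, 526 and 545 in the lean mice. The groups did not overlap (log2FC -0.25, adjusted p = 0.492 from limma). The pyrimidine nucleotide carrier Slc25a33 had from 154 to 188 in obese and from 116 to 155 in lean mice (log2FC 0.37, adjusted p = 0.466 from limma). Its relative Slc25a36 had from 764 to 961 and from 723 to 989 (log2FC 0.011, and -0.031 with quantile normalization). Slc25a17 of peroxisomes and Slc25a32 of folate had log2FCs of 0.025 and 0.022, with overlapping groups.

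The 3 carriers that resemble the uncoupling proteins each had a log2FC above 0, and their groups overlapped. Slc25a30 had 76.3, 115 and 81.8 normalized counts in obese mice 1, 2 and 3 and 48.2, 49.3 and 98.4 in the lean mice (log2FC 0.53, 95% interval -0.17 to 1.23). Slc25a27 had from 68.1 to 115 in obese and from 63.6 to 102 in lean mice, and Slc25a14 from 62.2 to 88.4 and from 57.9 to 78.4. Of the carriers of other or unsettled substrate besides Slc25a34 and Slc25a35, Slc25a45, Slc25a46, Slc25a47 and Slc25a53 had log2FCs from -0.48 to 0.10 and overlapping groups. The widest interval among the 29 members whose interval spans 0 belonged to Slc25a53, from -1.40 to 0.45, so for this gene a 2-fold lower level was within the interval.

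The balance between related carriers was compared as the log2 ratio of 2 genes in each mouse, for 11 pairs of which both genes were tested. In 5 pairs the 3 ratios of one group all lay above those of the other, each with a two-sided exact permutation p of 0.1, the smallest possible, which became 0.22 after Benjamini-Hochberg adjustment over the 11 pairs. The share of other gene pairs that lie apart in this way was not computed, so the count has no background. Each of these 5 pairs also holds a gene whose own groups were apart. The pair with the largest shift was Slc25a34 over Slc25a35, whose log2 ratio was 3.71, 4.19 and 3.08 in obese mice 1, 2 and 3 and 2.06, 1.48 and 1.08 in lean mice 1, 2 and 3. The mean log2 ratio differed by 2.12, and the lowest obese mouse stood above the highest lean mouse.

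Slc25a20 was compared with Slc25a29, a carrier of basic amino acids that is close to it in sequence. Their log2 ratio was 4.03 ± 0.56 in obese and 3.12 ± 0.09 in lean mice (SD, n = 3 each), a difference of 0.91. Aralar over citrin shifted by 0.54, from 2.18 ± 0.32 in lean to 2.72 ± 0.14 in obese mice. Slc25a16 over Slc25a42, both linked to coenzyme A, was lower by 0.70 in log2 ratio in obese mice, and Slc25a23 over Slc25a24 by 0.53, with 2.83, 2.90 and 2.83 in the obese and 3.55, 3.39 and 3.20 in the lean mice. In the other 6 pairs, among them Slc25a4 over Slc25a5 (difference -0.15, two-sided exact permutation p = 0.3), the ratios overlapped.

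**Figure D4:**
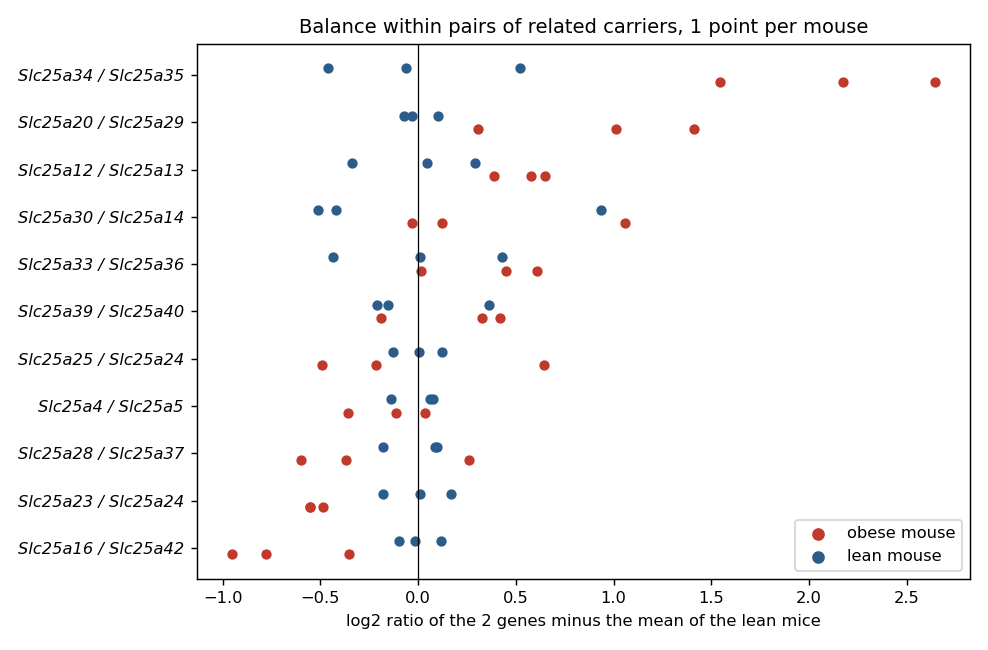
Log2 ratio of the 2 genes of each pair, minus the mean of the lean mice, with 1 point for each obese (red) and lean (blue) mouse. Red and blue points do not overlap for 5 of the 11 pairs, and Slc25a34 over Slc25a35 has the largest shift, 2.12. The share of other gene pairs apart in this way was not computed.

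The 8 members not tested were near or at the floor. Slc25a41 and Slc25a54 had 0 reads in all 6 libraries, which allows up to 3.41 normalized counts in the shallowest of them. Slc25a48, Slc25a18, Slc25a43, Slc25a21, Slc25a2 and Slc25a31 had at most 3, 4, 8, 13, 12 and 12 reads in any library. Of these, Slc25a31 is the ADP/ATP carrier of the testis, and Slc25a21, the oxoadipate carrier, had 3, 0 and 1 reads in the obese and 6, 13 and 2 in the lean mice, with overlapping groups.

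Some relatives of the family carry other symbols. Ucp3, the uncoupling protein of muscle, had 1778, 2003 and 691 normalized counts in obese mice 1, 2 and 3 and 212, 244 and 151 in lean mice 1, 2 and 3 and rose (log2FC 2.76, adjusted p = 0.00937 from limma), with obese mouse 3 again the lowest obese mouse. Ucp1, that of brown fat, rose as well, with 706, 173 and 745 in the obese and 86.2, 5.48 and 15.3 in the lean mice (log2FC 4.43, adjusted p = 0.0446 from limma). For Ucp2, found in many cell types, the log2FC was 0.49 (adjusted p = 0.196 from limma), and for the outer membrane proteins Mtch1 and Mtch2 it was -0.13 and -0.12.

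The carriers were last set beside genes that work with them. The carnitine shuttle genes were 5, most of which prepare or hand over the acyl groups that Slc25a20 moves. Of these 5, 0 passed the adjusted threshold and 4 had a higher value with an unadjusted p under 0.05 from limma. Of all genes tested, 6.66% had such a higher value. The median log2FC of the carnitine shuttle genes was 0.52, and the log2FC of Slc25a20 was 0.57. Like the carboxylate class, this list is too small for its count to be read as a result. Cpt1a, the acyltransferase of the outer membrane that is common in liver, had 1670, 2036 and 1222 normalized counts in obese mice 1, 2 and 3 and 923, 799 and 944 in the lean mice (log2FC 0.86, adjusted p = 0.0577 from limma). Cpt1b, the form of muscle, had from 11582 to 11811 in obese and from 8457 to 9952 in lean mice (0.37, adjusted p = 0.185 from limma). Cpt2, which works on the matrix side, showed a log2FC of 0.53 (adjusted p = 0.105 from limma), and for these 3 the groups did not overlap.

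Of 19 other mitochondrial transporters, such as the pyruvate carrier, the calcium uniporter and the porins, 0 passed the adjusted threshold, 5 lay above and 14 below a log2FC of 0, and the median was -0.13. Mpc1, a subunit of the pyruvate carrier, had from 2521 to 2773 normalized counts in obese and from 2874 to 3542 in lean mice (log2FC -0.24, adjusted p = 0.467 from limma). Of 16 nuclear genes of the respiratory chain and ATP synthase, 0 had an unadjusted p under 0.05 from limma and 15 lay below 0. Their median was -0.15, in a range from -0.22 to 0.10. Of all 15275 genes tested, 7514 lay below a log2FC of 0. Genes of a list may vary together, so the signs within a list are not separate observations. The 39 members tested ranged from -0.87 to 1.33. They outnumber the respiratory chain genes, and many had larger standard errors, so the ranges are not like for like.

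**Figure D5:**
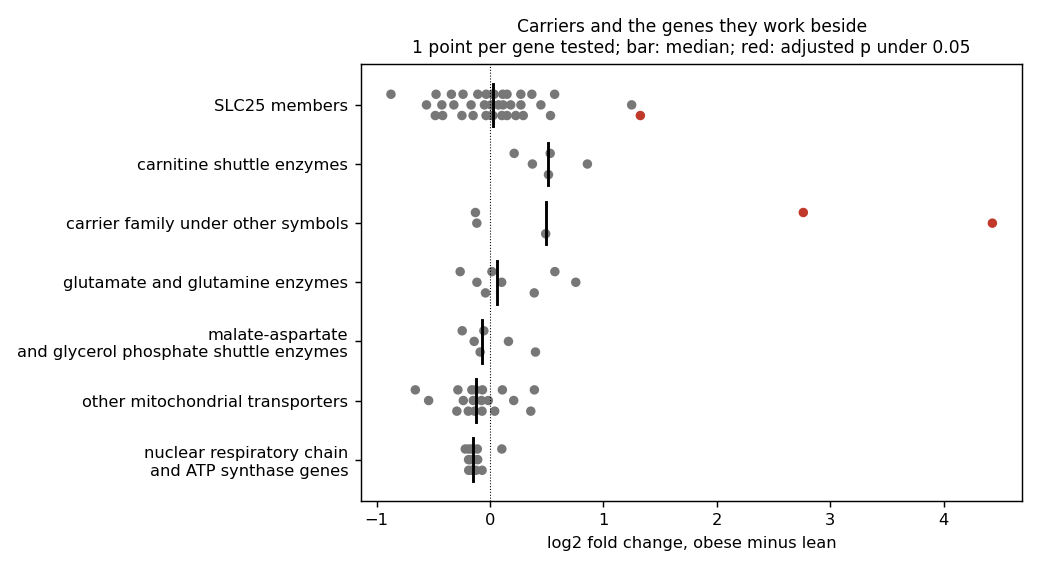
Log2 fold change, obese minus lean, of each gene tested in the SLC25 family and in 6 lists of related genes, with the median of each list as a black bar and an adjusted p under 0.05 in red. The median is 0.023 for the family, 0.52 for the carnitine shuttle genes and -0.15 for the respiratory chain genes.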

How the data were processed

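RNA sequencing of 6 atrial samples was analysed. The authors checked reads with FastQC, aligned them with STAR to GRCm38 (ENSEMBL 79), kept uniquely mapped reads, assigned them to genes with Salmon and normalized with DESeq2. Tool versions are not given in the sources used here. The deposited signal is the read count of a gene divided by 1 size factor per sample. The table also holds the authors' fold changes and p-values, which were not used. Per the labels, libraries were directional.

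Dividing each sample's values by the smallest positive one gave whole reads, within 0.001, for 100% of values. Genes averaging 10 normalized counts or more were tested by limma (version 3.58.1, R version 4.3.3, with lmFit and with eBayes allowing for a trend of the variance) after taking log2(normalized count + 1), and p-values under 0.05 after Benjamini-Hochberg correction passed. The design had also allowed for deposited counts, which these values are not. As alternatives, whole reads were tested by edgeR 4.0.16 and by DESeq2 1.42.0. The scripts were tested on simulated data. Nothing says whether atria of several mice were pooled in a sample, so p-values measure only the spread between these samples, which are called mice 1 to 3 of a group.

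Symbols came from GENCODE M21 (GRCm38), which matched 42462 of 43432 identifiers, and exon lengths from the same annotation. RefSeq windows before gene starts were found for 36 of 47 members. Members described in full were those past the adjusted threshold, those with an unadjusted p under 0.05 and groups apart, the 6 highest per kb and both genes of each tested pair. Every untested member was to be named, and the rest given by class. Slc25a1, Slc25a51, Slc25a53, Slc25a27 and the genes of other lists were given values after these were seen. Members, pairs and lists were chosen with earlier results of these data known. 1 row without a gene name held only 0. Values of 1 member and of 1 gene of another list are not reported here, though both stay in the counts.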

Additional observations from a re-analysis of the deposited data

How the results depend on the processing

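Slc25a22 kept its direction under all 16 alternatives (log2 fold change from 1.26 to 1.38 with a mouse left out) and an adjusted p under 0.05 in all but limma without a variance trend. That setting gave 0 genes past the adjusted threshold (1717 at an unadjusted p under 0.05) and so 0 members. At an unadjusted p under 0.05 it gave 4 members higher and 3 lower. DESeq2 gave 483 genes, with 2 members higher and 1 lower, Slc25a20 and Slc25a35 beside Slc25a22. edgeR gave 87 genes with TMM and 91 with RLE. With a mouse left out, the genes past the threshold were 52, 24 and 342 without obese mouse 1, 2 or 3 and 50, 14 and 19 without lean mouse 1, 2 or 3. The same fits gave members past it in the higher direction from 1 to 4 (4 without obese mouse 3), lower members with an unadjusted p under 0.05 from 2 (without lean mouse 2) to 7 and higher ones from 3 to 5, members with groups apart from 12 to 18, and the median log2 fold change of members from 0.011 to 0.065.

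The replicate numbers name different mice. The deviations of same-numbered mice correlated at 0.116, -0.027 and -0.00386, and not every mouse correlated best with its own number. With the replicate number as a block there were 157 genes and 2 members past the threshold, the second being Slc25a34 (adjusted p = 0.00413 from limma).

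Of 416 values of 26 members under alternatives, 397 kept direction and side of the threshold and 12 turned sign, all of members near 0. With quantile normalization the log2 fold change of Slc25a4 was 0.072 and that of Slc25a36 -0.031. With a mouse left out, the ranges that crossed 0 were -0.066 to 0.22 for Slc25a5, -0.094 to 0.15 for Slc25a28, -0.12 to 0.057 for Slc25a4, -0.16 to 0.069 for Slc25a40, -0.11 to 0.12 for Slc25a36 and, for the ratio of Slc25a25 to Slc25a24, -0.35 to 0.22. The other 10 pairs kept their sign. The cause of these changes was not tested. With 3 mice in each group, small differences are not detectable, and for members under 10 normalized counts depth is the limit.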
